A study of Mus musculus with 3 samples.

Results

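Posterior lateral plate mesoderm cells were selected from the single-cell data of 3 wild-type mouse embryos as barcodes that held Cdx4, a homeobox gene of the caudal embryo, together with genes of the lateral plate. The selection gave 582 of the 22168 barcodes that passed quality control. By the sample labels the embryos were of a C57BL/6 x 129 SvEv strain and were collected at embryonic day 8, with 0 to 1 somites by the protocol and up to 2 by the stage field. Each embryo was dissociated whole after removal of its extraembryonic tissue and gave 1 library of 3′ transcripts counted by unique molecular identifier (UMI). All 3 embryos form a single group without a treatment, so that every comparison here is between classes of cells within the same embryos. The cells kept in embryos 1, 2 and 3 had a median of 26705, 14461 and 16242 UMIs, and the selected cells of 24730, 12540 and 14601.

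The lateral plate is the mesoderm farthest from the midline. It splits into a somatic layer, which builds the body wall and limb buds, and a splanchnic layer, which builds the heart and the wall of the gut. At the caudal end it is laid down by the primitive streak and borders the presomitic mesoderm medially and the base of the allantois behind. Caudal genes of the Cdx family act upstream of Hox genes, whose order along the chromosome follows the order of their use along the body axis.

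A barcode was selected when it held at least 1 UMI of Cdx4 and UMIs of at least 2 of Hand1, Foxf1 and Osr1. Hand1 and Foxf1 encode transcription factors of lateral and extraembryonic mesoderm, and Osr1 one of the lateral and intermediate mesoderm. Barcodes with any UMI of Tbx4 (allantois), Sox2 (neural), Tbx6 (presomitic mesoderm), Foxa2 (endoderm and axial mesoderm) or Tnnt2 (heart muscle), or with more than 1 UMI of Kdr (endothelium), were left out. The embryos contributed 152, 202 and 228 such cells, which was 2.48%, 2.49% and 2.88% of their kept barcodes (2.62% ± 0.227, SD, n = 3). These 10 genes chose the cells, and their values are a description without a test. Most members, 338, held Hand1 and Foxf1 without Osr1, 203 held all 3 genes, 30 held Hand1 and Osr1 only and 11 held Foxf1 and Osr1 only.

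UMIs of a class were summed per embryo and are given per 1000000 UMIs of that class (CPM). Cdx4 had 223, 361 and 278 CPM in the members of embryos 1, 2 and 3, and 31.5, 43.5 and 28.0 CPM in all other barcodes. Hand1 had 500, 424 and 478 CPM against 74.8, 93.8 and 109. Foxf1 had 161, 161 and 142 CPM against 27.1, 27.8 and 26.4. For each of these genes the embryos lay far apart between the classes, as the selection made them. Osr1, which was not required of every cell, had 31.2, 61.0 and 36.7 CPM and was found in 44.1%, 47.0% and 36.0% of the members.

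**Figure D1:**
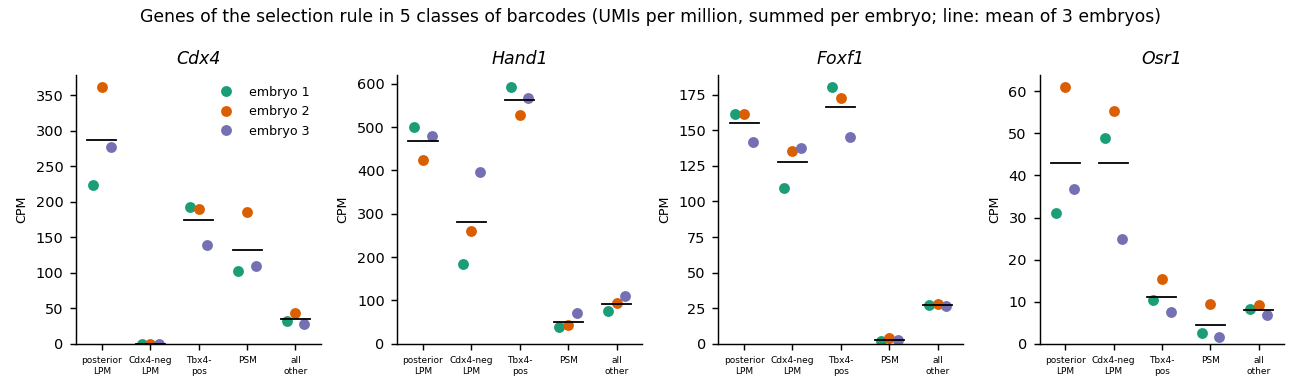
CPM (y axis, linear) of the 4 genes that selected the cells, in 5 classes of barcodes (x axis): posterior lateral plate mesoderm (LPM), Cdx4-negative LPM, Tbx4-positive cells, presomitic mesoderm (PSM) and all other barcodes. Each point is 1 embryo and each line the mean of 3; Hand1 and Foxf1 stand high in all 3 lateral classes, while Osr1 is low in the Tbx4-positive cells (11.1 CPM on average) and at a mean of 43.0 CPM in both other lateral classes.

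The limits on the selection cut through graded values. Of the members, 116 held exactly 1 UMI of Cdx4 and 266 held 5 or more, and 665 barcodes failed on Cdx4 alone. A further 399 failed on Tbx4 alone and 286 on Tbx6 alone. Just inside the Cdx4 limit, cells with 1 UMI had 365 ± 22.5 CPM of Hand1 and 153 ± 29.4 CPM of Foxf1, and just outside it the Cdx4-negative cells had 280 ± 108 and 128 ± 15.7 CPM (SD, n = 3 embryos). A doublet caller (Scrublet) did not work at its own threshold, where it marked 1, 2 and 1 barcodes, so its scores were ranked within each library. By that ranking 2.92% of the members were among the 6% of barcodes with the highest doublet scores, against 6.49% of all other barcodes. Between 14 and 20 cell barcodes were shared by any pair of libraries after quality control.

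The label was checked on genes that the selection did not use, against all other barcodes of the same embryos. Most Hox genes, Bmp4, Msx1, Msx2, Pitx1 and Mesp1, a gene of the paraxial list, were higher in the members. Of 28 lateral plate factors 12 were higher, 7 lower, Tbx5 and Irx5 among them, and 9 did not pass. Of 7 allantois markers 6 were higher as well. Most markers of endoderm, neural tissue and endothelium were lower. The selection itself left out barcodes with Foxa2 or Sox2 and limited the UMIs of Kdr. The lower markers of these tissues are therefore no independent check of the label. Of 15581 genes tested, 1559 passed an adjusted p of 0.05 in edgeR (10.0%), 502 of them higher (3.22%) and 1057 lower (6.78%). With the embryo as a block the test called 3053 genes (19.6%), 7.44% of all higher and 12.2% lower, and without embryo 2 or 3 it called 767 and 382 in place of 1559. The median log2 fold change of all genes tested was -0.03.

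Hoxd9, on chromosome 2 (74697727 to 74700208, GRCm38), led the genes that were higher. It had 85.1, 105 and 109 CPM in the members of embryos 1, 2 and 3, and 9.62, 11.4 and 14.5 CPM in all other barcodes, a log2 fold change of 3.07 ± 0.174 (SE, adjusted p = 2.14e-05). No embryo's members came near the level in the other barcodes. Mesp1, a bHLH factor of mesoderm leaving the primitive streak, had 137, 142 and 161 CPM against 20.8, 15.4 and 20.7 (2.96 ± 0.132, adjusted p = 7.3e-06). It was found in 63.2% ± 3.95 of the members and in 1.79% ± 1.01 of erythroid cells, the cell type used here to read free RNA (mean ± SD of embryos 2 and 3 only, since embryo 1 had no such barcode). Mixl1, a homeobox gene of the primitive streak, had 27.6, 24.9 and 25.6 CPM against 5.31, 3.72 and 4.30 (2.56 ± 0.154, adjusted p = 2.4e-05). Further genes with log2 fold changes above 2 were Col9a1 (2.60), a collagen, Sct (2.44), which encodes the hormone secretin, Spin2c (2.14), a gene with close copies whose reads may not be separable, and Evx1 (2.09), a homeobox gene of the streak.

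Among 28 transcription factors of the lateral plate, 12 were higher, 7 lower and 9 did not pass, with a median log2 fold change of 0.36. Without embryo 3 the counts fell to 7 and 2, and without embryo 2 the lower genes to 3. Msx2 and Msx1, homeobox targets of BMP signals, were higher by 2.07 ± 0.156 and 1.28 ± 0.102 on the log2 scale. Hand2, the paralogue of Hand1, had 49.7, 50.4 and 54.6 CPM against 18.7, 22.1 and 24.5 (1.25 ± 0.129, adjusted p = 0.000424). Pitx1, a hindlimb factor, rose by 1.61 ± 0.248, Tbx3, a T-box factor, by 1.45 ± 0.147 and Isl1, needed for the hindlimb field, by 0.80 ± 0.132. Tbx5, the factor of the forelimb and heart fields, fell by 1.66 on the log2 scale, to 1.24 ± 0.426 CPM against 3.86 ± 0.46, and Irx5 by 1.65. The call on Tbx5 was lost when any 1 embryo was left out and that on Isl1 without embryo 3. Prrx1, an early limb mesenchyme gene, had 27.6 ± 7.02 CPM against 18.1 ± 3.08 and did not pass (adjusted p = 0.073), but passed under the block (adjusted p = 0.0066).

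**Figure D2:**
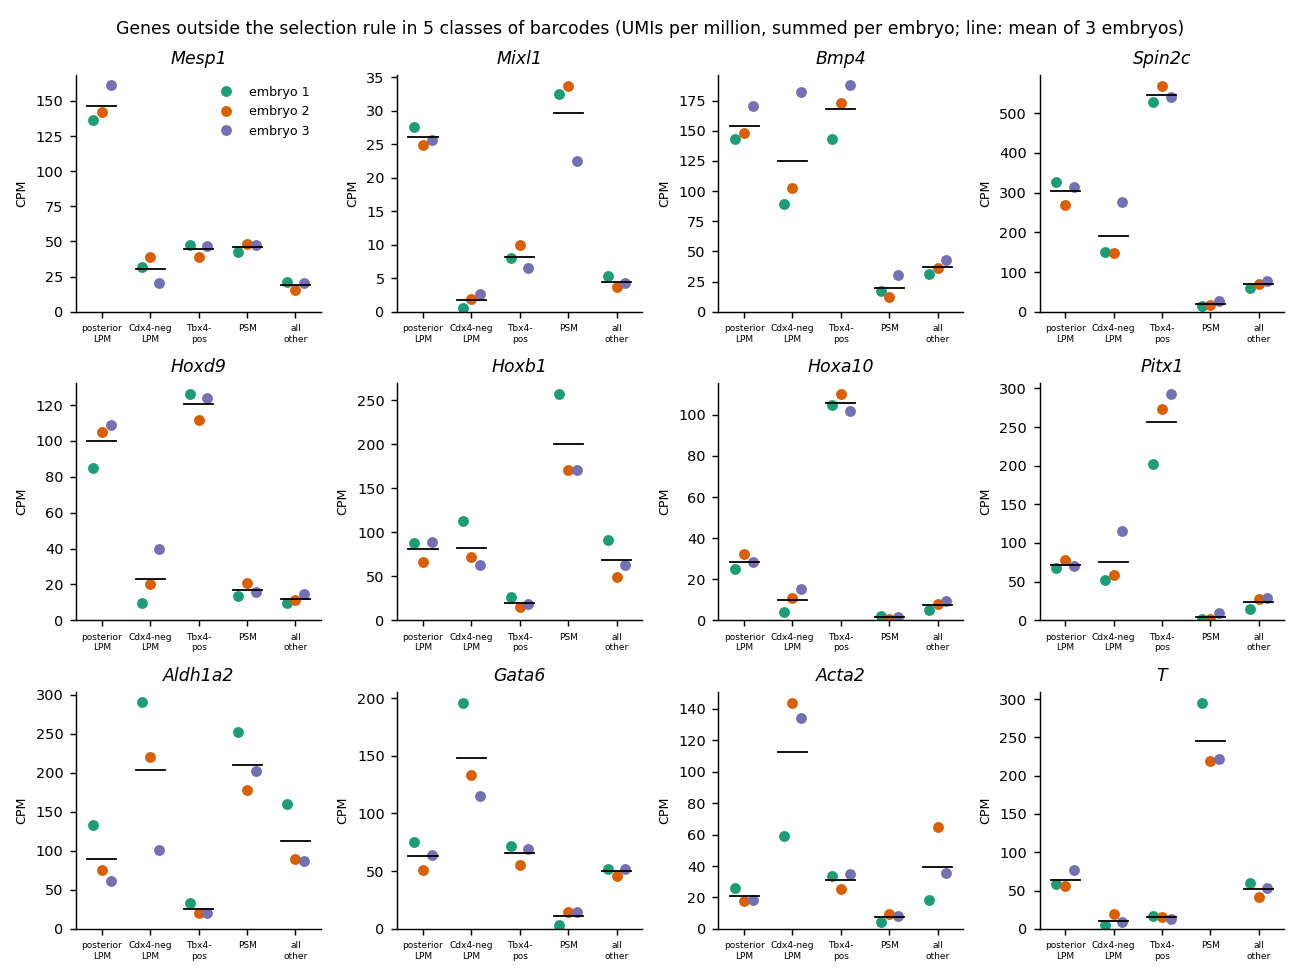
CPM (y axis, linear) per embryo of 12 genes that took no part in the selection, in the same 5 classes (x axis, PSM: presomitic mesoderm). Points are embryos and lines are means of 3; Mesp1 reaches 147 CPM in posterior lateral plate cells and at most 46.0 CPM on average in the other classes, Hoxd9 and Spin2c are shared with the Tbx4-positive cells, and T and Mixl1 with the presomitic mesoderm.

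Hox genes were the list with the most genes higher against all other barcodes, with 25 of 36 tested higher, 1 lower and 10 not passing. Their median log2 fold change was 1.85, beside -0.03 for all genes, and without embryo 3 the test called 10 higher. By paralogue group, a split made after the values were seen, 7 of 15 genes of groups 1 to 5 were higher, 7 of 8 of groups 6 to 8 and 11 of 13 of groups 9 to 13. Hoxa10 had 24.8, 32.0 and 28.2 CPM in the members and 4.79, 7.83 and 9.60 in the other barcodes (1.93 ± 0.258, adjusted p = 0.00165). Hoxd13, at the end of its cluster, had 2.68 ± 0.762 CPM against 0.387 ± 0.0498, so that this difference of 2.80 lay at the low end of what was detected.

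Ligands, inhibitors and targets of BMP signalling were measured through 26 genes, of which 7 were higher and 19 did not pass. Under the block 11 were higher and 3 lower, and without embryo 3 the higher genes numbered 3. The ligand Bmp4 had 143, 148 and 170 CPM in the members and 31.1, 36.6 and 42.9 CPM in all other barcodes (2.06 ± 0.139, adjusted p = 4.48e-05), with a UMI in 78.9% ± 8.03 of the members and in 2.73% ± 0.323 of erythroid cells. The modulators Bmper and Bambi and the inhibitory Smad7 rose by 1.63 ± 0.231, 1.48 ± 0.161 and 1.03 ± 0.13. Of 13 hedgehog genes 10 did not pass, the receptor and target Ptch1 rose by 0.69 ± 0.115, and the ligands Shh and Ihh fell by 1.84 and 2.60. The calls on Ptch1 and Ihh were lost without embryo 3 and that on Shh without embryo 1 or 2, and under the block 3 were higher.

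The 24 caudal and primitive streak genes were split, with 10 higher, 5 lower and 9 not passing. Cdx2 had 253, 255 and 243 CPM against 116, 99.0 and 103 (1.25 ± 0.0784), while Cdx1, its paralogue, had 108 ± 5.3 CPM against 146 ± 36 and did not pass (adjusted p = 0.0871). Under the block Cdx1 passed as lower (adjusted p = 0.00105). Wnt5a, a ligand of the non-canonical pathway, rose by 1.54 ± 0.0909, and Wnt8a, Sp8 and Cyp26a1, which are strong in the streak and tail bud, fell by 2.27, 1.87 and 1.56. T, the streak and notochord factor, had 63.7 ± 11.2 CPM against 51.7 ± 8.88 and did not pass (adjusted p = 0.24), but passed as higher under the block (adjusted p = 0.0218). Of 19 mesenchymal and epithelial state genes 6 were higher, 7 lower and 6 did not pass, and without embryo 3 the counts were 4 and 3. Vimentin (Vim) rose by 1.09 ± 0.116, Cdh11 by 1.29 ± 0.121 and Snai1 by 1.49 ± 0.176. The epithelial genes Cdh1 and Epcam fell by 2.40 and 2.25. Of 8 proliferation genes 0 passed in edgeR, and 0 had an unadjusted p under 0.05 or passed in DESeq2. With the embryo as a block 1 was higher, the topoisomerase gene Top2a (0.19, adjusted p = 0.00278).

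Neighbouring mesoderm was represented in part. Of 7 allantois markers 6 were higher, among them Itga4 (1.84 ± 0.251), an integrin, and Hoxa11 (2.45 ± 0.357), a posterior gene that the Hox list also holds, and without embryo 3 the count was 3. Of 11 genes of the hindlimb field 7 were higher and 3 lower, and without embryo 3 the higher genes numbered 4. Of 10 extraembryonic mesoderm markers 1 was higher, 0 were lower and 9 did not pass, with a median log2 fold change of 0.05. Those markers summed to 254 ± 67.4 CPM in the members against 234 ± 58.8, and 0 were higher without embryo 1 or 3. Of 15 paraxial genes tested 3 were higher, Mesp1 among them, and 5 lower, among them Meox1 (-1.24 ± 0.245), a somite gene. Without embryo 3 the counts were 1 and 0, and the lower genes numbered 2 and 3 without embryo 1 or 2. The paraxial list shares Fst and Rspo3 with the caudal list. Of 7 intermediate mesoderm genes tested Lhx1 was higher (0.85 ± 0.135) and 3 were lower, among them the kidney factor Pax2 (-2.36 ± 0.302). The call on Lhx1 was lost without embryo 3, and that on Meox1 without embryo 2 or 3.

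Retinoic acid genes were divided, with 3 of 17 tested higher, 3 lower and, under the block, 9 lower. The receptor Rarg had 48.3 ± 3.96 CPM in the members against 19.3 ± 1.92 (1.33 ± 0.106), and the binding protein Crabp2 34.1 ± 4.77 against 93.8 ± 16.7 CPM (-1.45 ± 0.141). Among 7 germ cell markers tested, Ifitm3, an interferon-induced membrane protein gene that is also expressed in early mesoderm, had 53.0, 48.1 and 65.4 CPM against 33.4, 32.3 and 35.4 (0.73 ± 0.118), and Tfap2c, shared with the surface ectoderm list, fell by 1.47. The call on Ifitm3 was lost without embryo 3, and that on Tfap2c when any 1 embryo was left out.

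Many markers of endoderm, neural tissue, endothelium, heart and surface ectoderm were lower in the members. For endoderm, neural tissue, endothelium and heart the selection had already excluded or limited a marker (Foxa2, Sox2, Kdr and Tnnt2). How far the lower values follow from those limits was not tested. Of the allantois and extraembryonic mesoderm markers 0 were lower, and of the 7 germ cell markers tested 1 was. Of the endoderm markers 10 of 11 were lower, of the neural markers 5 of 8, of the endothelial markers 7 of 10, of the cardiac markers 5 of 10 and of the surface ectoderm markers 4 of 7. Blocking on the embryo, 8 of the cardiac markers were lower, and without embryo 1, 2 or 3 the counts for endothelium were 7, 4 and 3, for heart 3, 4 and 2 and for surface ectoderm 1, 3 and 0. Summed over each list, endoderm markers had 383 CPM in the members against 2409 CPM, with Ttr the most abundant at 88.8 CPM, and neural markers had 18.5 against 117 CPM. Otx2, a gene of the anterior neural plate, fell by 3.29 and Tal1, a blood and endothelial factor, by 4.52. Several genes in these counts rest on few UMIs in the members. Among them were Foxa1, Sox1, Sox7 and Cdh5, with means of 0.0845, 0.377, 0.114 and 0.370 CPM there. Such genes could pass the filter on low counts through the larger sums of the other barcodes, so their calls are a description. Emx2, an intermediate mesoderm gene, had 0 UMIs in the members and 0.791 ± 0.1 CPM in the other barcodes. A floor of 3 UMIs over all members is 0.281 CPM. Emx2 could pass the filter on low counts only through the other barcodes, so its lower call in that list is a description without a test.

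Blood transcripts differed between libraries. The 8 erythroid markers summed to 0.5, 234.8 and 8.2 CPM in the members of embryos 1, 2 and 3 and to 1.4, 1224.1 and 167.4 CPM in all other barcodes, with Hbb-bh1 the most abundant. Erythroid barcodes, those with at least 50 UMIs of Hba-x and a UMI of Klf1, numbered 0, 372 and 40 in the same embryos. Of the 8 erythroid genes 0 passed in edgeR without the block, where 1 had an unadjusted p under 0.05 and DESeq2 called 1, and 8 were lower with it. The part of free RNA in other differences was not tested.

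Of 10 left-right genes tested 1 was higher, 1 lower and 8 did not pass, and under the block 2 were higher and 2 lower. The higher gene was Cfc1, the co-receptor of Nodal. Cfc1 had 87.9, 76.7 and 91.6 CPM in the members against 31.0, 28.3 and 35.7 (1.44 ± 0.113, adjusted p = 8.2e-05), and 70.6% ± 9.39 of the members held a UMI against 2.73% ± 0.323 of erythroid cells. Its level was similar in the Cdx4-negative lateral plate, at 76.5 ± 11.6 CPM, and that difference did not pass (0.17 ± 0.125, adjusted p = 0.669). Against the Tbx4-positive cells Cfc1 rose by 0.55 ± 0.117 (adjusted p = 0.0132), a call that was lost without embryo 2 or 3. The lower gene was Cer1, an inhibitor of Nodal, with 2.38 ± 0.35 against 8.43 ± 3.8 CPM (-1.83 ± 0.402, adjusted p = 0.0183), and its call was lost without embryo 1 or 3. Acvr2b, a receptor, had 117 ± 13.6 against 121 ± 18.4 CPM and did not pass (adjusted p = 0.879). Nodal had 2 UMIs and Lefty2, its antagonist, 1 UMI over all 582 members, and Lefty1 and Tdgf1 had none, which allows up to 0.281 CPM. Dand5 and Foxh1 were found in 5.32% and 5.71% of the members, beside 4.21% and 3.58% of erythroid cells. Against all other barcodes Foxh1 did not pass (1.04, adjusted p = 0.107), but passed as higher under the block (1.05, adjusted p = 0.0226).

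The next comparison set the members against 665 barcodes that met the same limits with no Cdx4 UMI, 147, 224 and 294 from the 3 embryos. Caudal genes such as Mixl1, T and Cdx2 and Hox genes such as Hoxb8 and Hoxa7 were higher in the members, and Gata6, Mef2c and Acta2 were among the genes that were lower. Of 10297 genes tested, 364 passed (3.54%), 181 higher (1.76%) and 183 lower (1.78%). Under the block 820 passed (7.96%), 3.28% higher and 4.68% lower, and without embryo 1, 2 or 3 the test called 219, 107 and 192.

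Of 23 caudal genes tested, 17 were higher and 6 did not pass, with a median log2 fold change of 1.14 beside 0.01 for all genes, and 10 were higher without embryo 2. Mixl1 had 27.6, 24.9 and 25.6 CPM in the members and 0.509, 1.96 and 2.66 CPM in the Cdx4-negative cells (3.89 ± 0.307, adjusted p = 9.8e-05). T, on chromosome 17 (8434423 to 8442496), had 59.0, 55.6 and 76.5 CPM against 4.33, 19.3 and 8.43 (2.62 ± 0.333, adjusted p = 0.00111). In both genes the embryos of the classes did not overlap. Cdx1 and Cdx2 rose by 1.29 ± 0.259 and 1.11 ± 0.165, and Fgf8, a growth factor of the tail end, by 1.14 ± 0.246. The calls on Cdx1 and Fgf8 were lost without embryo 1 or 3, and that on Cdx2 without embryo 2. Mesp1 rose by 2.31 ± 0.185, and Sct by 3.07 ± 0.156.

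Of 27 Hox genes tested 15 were higher and 12 did not pass, with a median of 1.37, and without embryo 2 the higher genes numbered 4. Hoxb8, on chromosome 11 (96281905 to 96285315), had 57.3, 97.5 and 66.5 CPM against 12.2, 16.5 and 25.3 (2.02 ± 0.251, adjusted p = 0.000974). Hoxa7 had 22.3, 47.7 and 21.4 CPM against 2.29, 7.29 and 4.44 (2.71 ± 0.394), and Hoxb9 rose by 2.17 ± 0.213. Hoxaas3, an antisense transcript across several HoxA genes, rose by 3.77 ± 0.491, and its reads and those of overlapping Hox genes may not be separable because the strand setting of the counting is not given in the sources used here. Among the anterior groups, 4 of 11 genes of groups 1 to 5 were higher, beside 6 of 7 of groups 6 to 8 and 5 of 9 of groups 9 to 13.

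**Figure D3:**
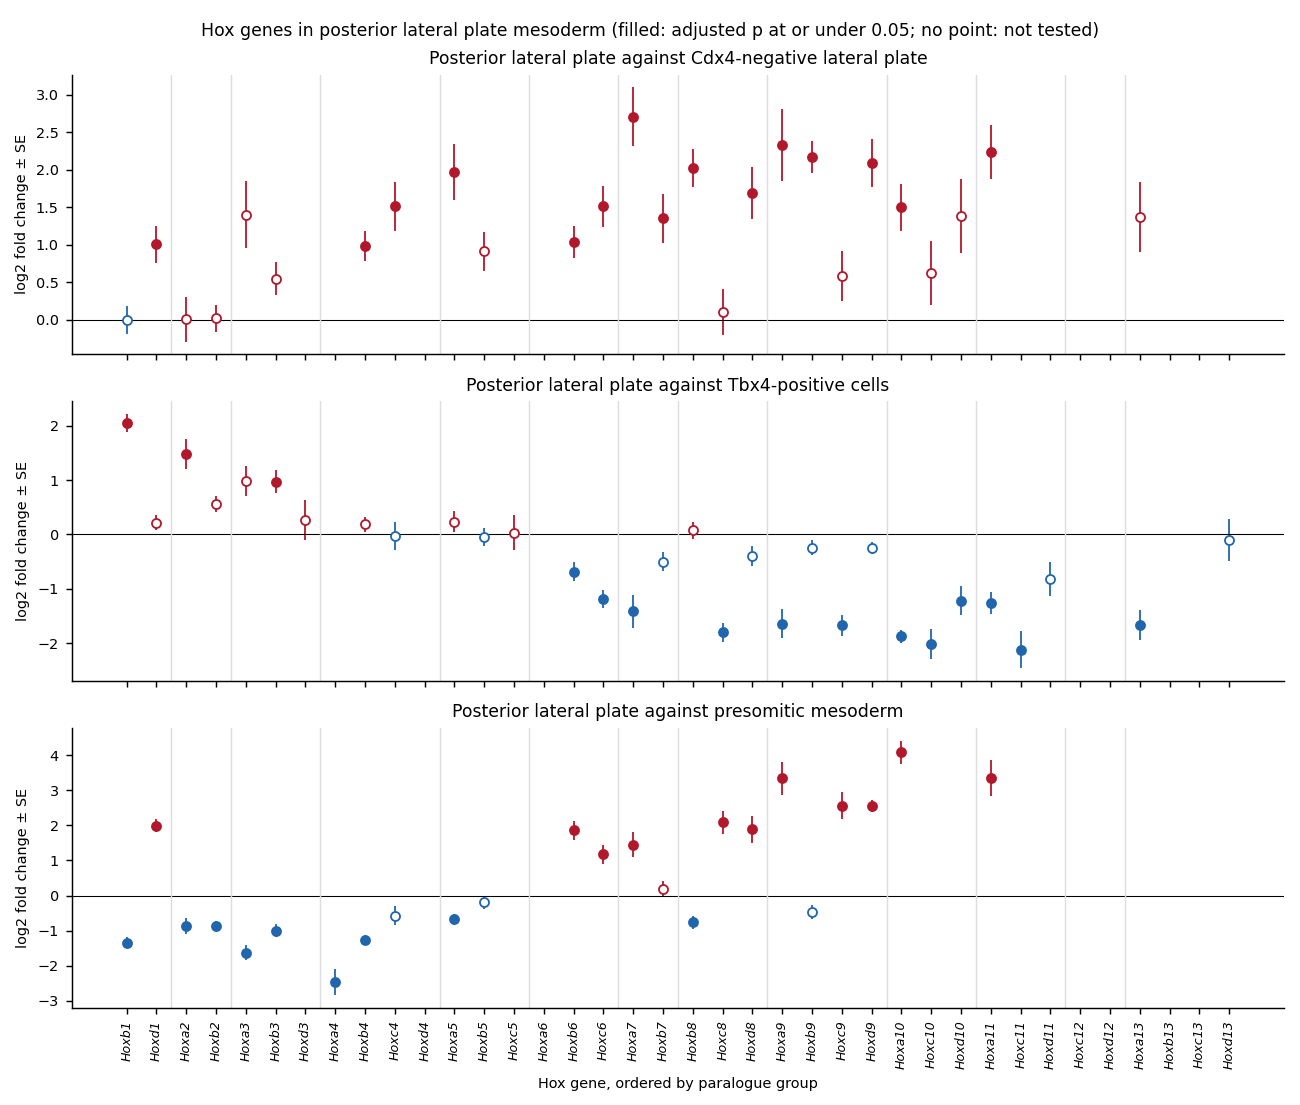
Log2 fold change (y axis, with SE) of 38 Hox genes (x axis, ordered by paralogue group) in the members against Cdx4-negative lateral plate, Tbx4-positive cells and presomitic mesoderm; red is higher, blue lower, filled points passed an adjusted p of 0.05 and genes without a point were not tested. Against the Tbx4-positive cells the points run from Hoxb1 at 2.04 down to Hoxc11 at -2.13, and against the presomitic mesoderm from Hoxa4 at -2.47 up to Hoxa10 at 4.09.

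The sequences upstream of T and Hoxb8 are shown because both genes were higher in the members in this comparison and both windows hold TTTATG. The window of T also holds CTTTGA, and that of Hoxb8 does not. Each line gives the 250 bases before the start of the RefSeq transcript on GRCm38.p6, 5′ to 3′ on the plus strand, at chr17:8434173-8434422 and chr11:96281655-96281904. Capitals mark TTTATG, a core found in sites of Cdx proteins, and CTTTGA, a core found in sites of LEF/TCF proteins, on either strand.
T: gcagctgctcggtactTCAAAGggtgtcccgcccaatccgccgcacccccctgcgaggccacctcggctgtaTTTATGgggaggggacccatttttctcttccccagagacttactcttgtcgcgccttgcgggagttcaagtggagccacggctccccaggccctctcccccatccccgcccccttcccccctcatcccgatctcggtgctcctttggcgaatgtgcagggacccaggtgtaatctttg
Hoxb8: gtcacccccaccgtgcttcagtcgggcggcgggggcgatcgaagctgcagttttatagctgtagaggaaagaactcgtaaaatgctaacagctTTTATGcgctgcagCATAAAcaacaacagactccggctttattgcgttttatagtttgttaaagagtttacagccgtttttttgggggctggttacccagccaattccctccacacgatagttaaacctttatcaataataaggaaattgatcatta
Of the 32 caudal and Hox genes that were higher, 21 had a window in the reference table, 28 windows in all. TTTATG was found in 4 of these windows (14.3%) and CTTTGA in 5 (17.9%). Over all 32851 windows of that length, 10.8% held the first and 13.8% the second. A match is a description of the letters and says nothing of binding in these cells.

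Of 28 lateral plate factors, 5 were higher, 9 lower and 14 did not pass, and blocking on the embryo 15 were lower. Without embryo 2 the counts were 1 and 0, so that Gata6, Meis1 and Tbx5 lost their calls, and without embryo 1 the higher genes numbered 3. Gata6, a factor of the heart and gut mesoderm, had 75.0, 51.1 and 63.9 CPM in the members against 196, 133 and 115 (-1.20 ± 0.184, adjusted p = 0.00336), without overlap between the classes. Meis1, a homeobox co-factor of Hox proteins, fell by 1.54 to 28.0 ± 3.96 CPM, and Tbx5 fell by 2.60. Of 7 cardiac markers tested, 4 were lower, among them Mef2c (-2.32 ± 0.412) and Myl7 (-1.32 ± 0.217), and without embryo 1 the count was 1 and without embryo 2 it was 2. Hand2 had 51.6 ± 2.67 against 66 ± 4.59 CPM and did not pass (adjusted p = 0.135), but passed as lower under the block (adjusted p = 0.0275).

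Markers of the extraembryonic mesoderm, several of them contractile genes, were lower in 5 of the 6 tested, and in 3 and 2 without embryo 2 or 3. Smooth muscle actin (Acta2) had 26.1, 17.7 and 18.5 CPM in the members against 59.1, 144 and 134 (-2.41 ± 0.298, adjusted p = 0.000944). Tagln, another smooth muscle gene, fell by 2.37. Alx1, of head mesenchyme, fell by 2.41, and Sfrp5, a secreted Wnt inhibitor of the foregut and heart region, by 3.08, a call that was lost without embryo 1 or 2. The sum over extraembryonic markers was 254 CPM in the members and 729 CPM in the Cdx4-negative cells, with Pmp22 the most abundant in both.

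The same genes were followed through the number of Cdx4 UMIs in a barcode, as a description without a test, since Cdx4 chose the cells and deeper barcodes hold more of its UMIs. Mesp1 had 30.2 ± 9.46 CPM in Cdx4-negative cells, 61.2 ± 8.93 in members with 1 UMI, 130 ± 22.3 with 2 to 4 and 194 ± 30.7 with 5 or more. Mixl1 went from 1.71 ± 1.1 through 6.07 ± 0.353 and 18.7 ± 2.23 to 39.3 ± 2.88 CPM. In both genes each step was upward in each embryo. Gata6 was lower at 5 or more UMIs than at 0 in each embryo, with means of 148 ± 42.4, 84.8 ± 19.3, 78.0 ± 29.4 and 44.2 ± 2.92 CPM. Hand1 went from 280 ± 108 to 552 ± 79.7 CPM, and Hand2 from 66.0 ± 4.59 to 42.3 ± 2.48.

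**Figure D4:**
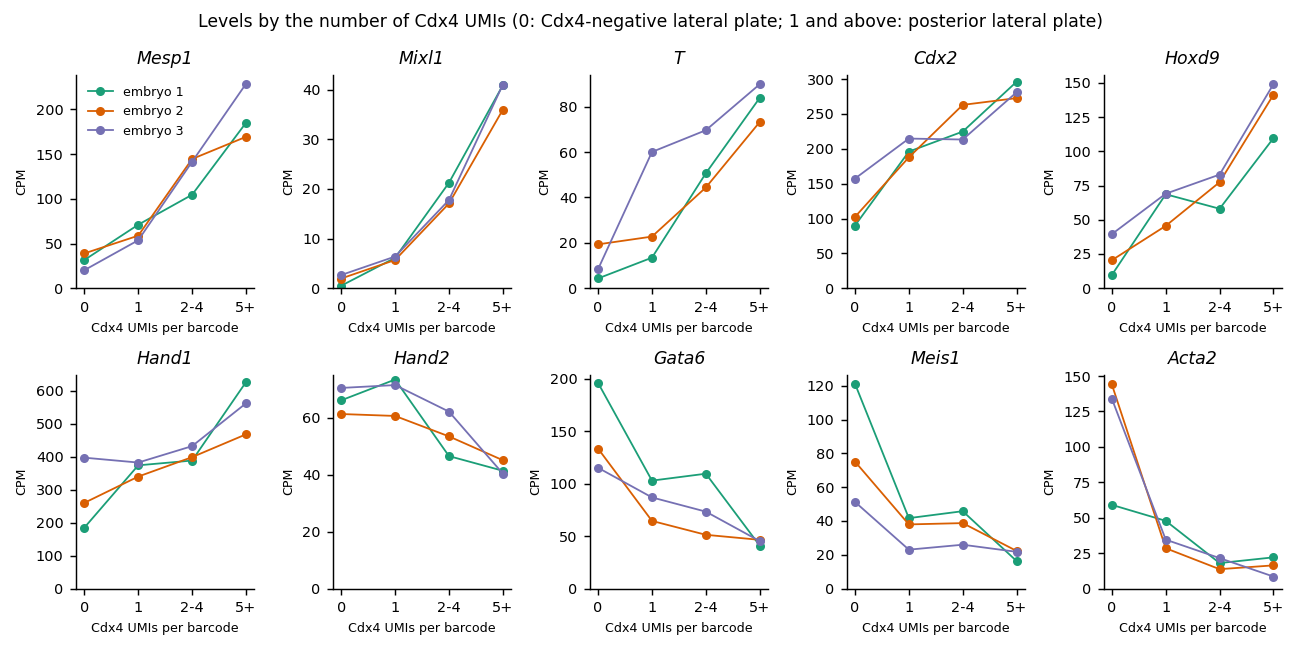
CPM (y axis, linear) of 10 genes by the number of Cdx4 UMIs in the barcode (x axis), where 0 is the Cdx4-negative lateral plate and 1, 2 to 4 and 5 or more are members; each line is 1 embryo. Mesp1 and Mixl1 climb in all 3 embryos and reach 194 and 39.3 CPM on average, while Gata6, Meis1 and Acta2 end below their start in all 3.

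The members were then set against the lateral cells that carried Tbx4, a T-box gene of the allantois and later of the hindlimb. These numbered 614, 145, 203 and 266 from the 3 embryos, met the same limits otherwise and could hold Cdx4 or not. Genes higher in the members included T, Fgf8, Dll3, Aldh1a2 and Hoxb1, and genes lower in them included Hoxa10, Pitx1, Tbx2 and Isl1. Of 10206 genes tested, 385 passed (3.77%), 193 higher (1.89%) and 192 lower (1.88%). Under the block 1449 passed (14.2%), 7.24% higher and 6.96% lower, and without embryo 2 or 3 the test called 170 and 79.

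Hox genes split by paralogue group. Of 13 genes tested in groups 1 to 5, 4 were higher and the rest did not pass, and of 19 in groups 6 to 13, 12 were lower and the rest did not pass. Without embryo 2 the test called 2 higher and 12 lower, and without embryo 3 it called 3 and 4. Hoxb1, the first gene of its cluster, had 87.9, 66.1 and 88.9 CPM in the members against 26.1, 15.0 and 18.9 (2.04 ± 0.168, adjusted p = 6.02e-06). Hoxa10 had 24.8, 32.0 and 28.2 CPM against 105, 110 and 102 (-1.87 ± 0.119, adjusted p = 1.07e-06). Neither gene overlapped between the classes in any embryo. Hoxc8 fell by 1.80, Hoxa13 by 1.67 and Hoxc11 by 2.13.

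Of 23 caudal genes tested, 12 were higher and 1, Wnt5a (-0.41 ± 0.0891), was lower. The call on Wnt5a was lost without embryo 2 or 3, and under the block 4 were lower. T had 59.0, 55.6 and 76.5 CPM against 16.1, 15.7 and 13.4 (2.12 ± 0.159), and Fgf8 34.4 ± 7.43 CPM against 7.80 ± 0.92 (2.18 ± 0.199). Cdx2 had 250 ± 6.2 and 280 ± 39.9 CPM and did not pass (adjusted p = 0.595), whereas Cdx1 rose by 1.79 ± 0.121. Paraxial mesoderm genes, a list that shares Fst and Rspo3 with the caudal list, gave 7 of 10 higher. Among them Dll3, a Notch ligand of the presomitic mesoderm, rose by 2.47 ± 0.279 and Mesp1 by 1.75 ± 0.113. Lhx1, a LIM factor of intermediate and lateral mesoderm, rose by 2.53 ± 0.223, and the cell adhesion gene Pcdh19 by 2.05 ± 0.234. Against the Cdx4-negative cells Lhx1 did not pass (-0.71 ± 0.227, adjusted p = 0.141), but passed as lower under the block (adjusted p = 0.0145).

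Of 13 retinoic acid genes tested 6 were higher and 7 did not pass. Aldh1a2, the enzyme that makes retinoic acid in mesoderm, had 133, 75.0 and 61.2 CPM in the members against 33.6, 20.8 and 20.2 (1.89 ± 0.252, adjusted p = 0.000422). Its level differed between embryos, and embryo 1 was highest in both classes. The receptor Stra6 rose by 1.60 ± 0.297 and the reductase Dhrs3 by 1.28 ± 0.24. The count was 3 without embryo 3, and under the block 2 were lower. Against the Cdx4-negative cells Aldh1a2 went the other way, with 89.8 ± 38.3 CPM in the members against 204 ± 95.5 (-1.16 ± 0.331). There Aldh1a2 did not pass (adjusted p = 0.0931), but passed as lower under the block (adjusted p = 3.06e-05).

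Lower genes included factors of the allantois and limb. Of 10 hindlimb field genes tested 1 was higher, 4 were lower and 5 did not pass. Without embryo 3 the hindlimb counts were 0 higher and 1 lower. Of 27 lateral plate factors tested 4 were higher and 10 lower, and under the block 8 and 13. Without embryo 2 the counts were 1 and 5, and without embryo 3 they were 1 and 4. Pitx1 had 67.1, 77.4 and 69.7 CPM in the members against 202, 273 and 292 (-1.81 ± 0.133, adjusted p = 2.47e-06). Tbx2 fell by 1.98, Isl1 by 0.80 and Hand2 by 0.49, and 5 of 6 allantois markers tested were lower. Without embryo 3 the allantois markers called were 3. Tbx4, itself a gene of the allantois, separated the classes, and how far the allantois count follows from that limit was not tested. Cdkn1c, an inhibitor of the cell cycle, fell by 1.44 ± 0.218, with 223, 165 and 193 CPM in the members against 308, 584 and 718. The calls on Isl1, Hand2 and Cdkn1c were lost without embryo 2 or 3. Bmp4 had 154 ± 14.5 against 168 ± 22.9 CPM and did not pass (adjusted p = 0.767).

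Presomitic mesoderm served as the medial neighbour. Its 287 barcodes, 100, 123 and 64 from the 3 embryos, carried Cdx4 and Tbx6 and fewer than 2 of the lateral genes. Most lateral plate factors were higher in the members, as were Bmp4 and Hoxa10, and most caudal genes, Hes7, Dll1 and Hoxb1 were lower. The limits on Tbx6 and on the lateral genes ran opposite ways in these classes. The counts of lateral plate and paraxial genes are therefore no independent check of the label. How far they follow from those limits was not tested. Of 9783 genes tested, 1053 passed (10.8%), 495 higher (5.06%) and 558 lower (5.70%). With the embryo as a block 1954 passed, and without embryo 1 or 3 the test called 568 and 668.

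Of 27 lateral plate factors tested, 20 were higher and 2 lower (1 without embryo 3), with a median log2 fold change of 1.66 beside 0.00 for all genes. Pitx1 had 67.1, 77.4 and 69.7 CPM against 1.51, 1.11 and 9.19 (4.50 ± 0.327, adjusted p = 1.29e-07). Hand2 had 49.7, 50.4 and 54.6 CPM against 5.29, 7.74 and 5.85 (3.02 ± 0.193), and Tbx20, a T-box factor of heart and lateral mesoderm, rose by 4.09 ± 0.38. Gata6, Isl1 and Gata4 rose by 2.69 ± 0.299, 2.37 ± 0.225 and 2.11 ± 0.3. Of 20 BMP genes tested, 11 were higher, 1 lower and 8 did not pass. Without embryo 1, 2 or 3 the higher genes numbered 6, 8 and 7 and the lower 0. Bmp4 had 143, 148 and 170 CPM against 17.0, 12.2 and 30.1 (3.03 ± 0.192, adjusted p = 3.11e-08), and Bmp2, another ligand, rose by 3.02 ± 0.371. Cfc1 rose by 2.40 ± 0.268.

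Markers of the extraembryonic mesoderm and the allantois were also higher than in the presomitic mesoderm, in 6 of 6 and 5 of 5 tested, with median log2 fold changes of 3.17 and 3.36. The 10 extraembryonic markers summed to 321, 186 and 254 CPM in the members against 22.7, 36.5 and 45.9, with Pmp22 the most abundant in both and Lum and Dcn at 0 in the presomitic mesoderm. The 7 allantois markers, which include genes of the Hox and lateral plate lists, summed to 88.2, 94.7 and 80.2 CPM against 5.29, 4.98 and 10.0. Their part in the other differences was not tested.

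Caudal genes were lower in 15 of 24 and higher in 1, Wnt5a, with a median of -1.49. T had 59.0, 55.6 and 76.5 CPM against 295, 220 and 222 (-1.98 ± 0.138), so that T in the members stood between the presomitic mesoderm and the other lateral classes in every embryo. Cdx1 fell by 2.10 ± 0.103, and Cdx2 had 250 ± 6.2 and 266 ± 13.9 CPM and did not pass (adjusted p = 0.465). Hes7, an oscillating gene of the segmentation clock, had 13.2, 14.0 and 8.18 CPM against 190, 147 and 144 (-3.82 ± 0.172, adjusted p = 1.46e-09). Dll1, a Notch ligand, fell by 3.07 and Foxb1 by 3.76. Of 11 paraxial genes tested, 8 were lower and 1 higher, and the exception was Mesp1 with 137, 142 and 161 CPM against 42.3, 48.1 and 47.6 (1.66 ± 0.119, adjusted p = 1.18e-07).

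Hox genes again split by group, in the other direction. In groups 1 to 5, 9 of 12 were lower and Hoxd1 was higher, and in groups 6 to 13, 10 of 13 were higher and Hoxb8 was lower (-0.76 ± 0.182), a call that was lost without embryo 3. Hoxa10 had 24.8, 32.0 and 28.2 CPM against 2.27, 0.553 and 1.67 (4.09 ± 0.324, adjusted p = 3.47e-07). Hoxb1 had 87.9, 66.1 and 88.9 CPM against 257, 171 and 171 (-1.34 ± 0.152). The members therefore lay below the Tbx4-positive cells and above the presomitic mesoderm in Hoxa10, and the reverse in Hoxb1, in each embryo. These comparisons share the sums of the members.

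Among themselves the members were compared by Osr1. In the 3 embryos 67, 95 and 82 members held a UMI of Osr1, and 85, 107 and 146 held Hand1 and Foxf1 without it. The retinoic acid enzyme Aldh1a2 and several streak and paraxial genes were higher in the Osr1-positive members, and Pitx1, Spin2c and several genes of the visceral endoderm were lower. Of 8677 genes tested, 138 passed (1.59%), 42 higher (0.484%) and 96 lower (1.11%). Blocking on the embryo, 489 passed (5.64%), 2.56% higher and 3.08% lower, and without embryo 1, 2 or 3 the test called 48, 68 and 29. Absence of an Osr1 UMI does not show absence of the transcript at a median of 12540 to 24730 UMIs per cell. The Osr1-positive members were deeper in each embryo, with medians of 25516, 13246 and 15759.5 UMIs against 23752, 11011 and 14215.5. With barcodes thinned to the same number of UMIs the test called 16 of 4847 genes, 4 higher and 12 lower. Thinning also removed UMIs and genes from the test, and the part of depth in these differences was not tested.

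Aldh1a2 had 222, 102 and 102 CPM in the Osr1-positive members against 62.3, 45.8 and 36.5 (1.59 ± 0.239, adjusted p = 0.00083). Fst, which encodes the activin and BMP antagonist follistatin, had 109, 119 and 117 CPM against 36.4, 50.02 and 47.2 (1.40 ± 0.139, adjusted p = 7.78e-06). Both were higher in 3 of 3 embryos, without overlap, and the call on Aldh1a2 was lost without embryo 3. Of 8 paraxial genes tested 5 were higher and of 20 caudal genes 6, and with the block 8 and 10. Fst and Rspo3 were higher and stand in both lists, so that each was counted in both. Without embryo 1, 2 or 3 the paraxial count was 4, 4 and 2 and the caudal count 2, 4 and 3. With barcodes thinned to the same number of UMIs the paraxial count was 0 and the caudal count 1. With count splitting, which selects and tests on separate UMIs, the paraxial count was 3 and the caudal count 3. Of 12 retinoic acid genes tested 3 were higher, with 0 when thinned and 3 with count splitting. Mixl1 rose by 1.32 ± 0.236, Lhx1 by 1.19 ± 0.193, Mesp1 by 0.84 ± 0.129 and Robo2, a guidance receptor, by 1.23 ± 0.206. The calls on Mixl1 and Lhx1 were lost without embryo 1 or 3.

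Pitx1 had 25.7, 27.7 and 26.5 CPM in the Osr1-positive members against 100, 130 and 96.0 (-1.99 ± 0.16, adjusted p = 8.05e-07). Spin2c fell by 1.05 ± 0.101 and Cdkn1c by 0.67 ± 0.12, and the call on Cdkn1c was lost without embryo 1 or 3. Bmp4 had 119, 125 and 136 CPM against 162, 173 and 191 (-0.45 ± 0.11, adjusted p = 0.0402), and the call was lost when any 1 embryo was left out. Of 6 extraembryonic markers tested 2 were lower, Ahnak and Pmp22, which fell by 1.67 and 1.20, and 5 were lower under the block. The call on Ahnak was lost without embryo 3. Hand2 had 42.4 ± 1.62 against 58.8 ± 2.52 CPM and did not pass (adjusted p = 0.148), although the embryos did not overlap, and it passed under the block (adjusted p = 0.0198).

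Visceral endoderm transcripts moved with the Osr1-negative members. The apolipoprotein gene Apob had 2.29, 9.24 and 16.0 CPM in the Osr1-positive members against 39.1, 56.4 and 35.3 (-2.25 ± 0.333, adjusted p = 0.000719), and Ttr fell by 1.80, a call that was lost without embryo 2 or 3. Of 8 endoderm markers tested 3 were lower, and 6 with the block. Without embryo 1, 2 or 3 the count was 4, 1 and 1. It was 0 with barcodes thinned to the same number of UMIs and 1 with count splitting. The 11 markers summed to 113, 211 and 324 CPM in the positive and 375, 707 and 510 CPM in the negative members, beside 1501, 3263 and 2463 CPM in all other barcodes. Foxa1 was at 0 in the positive members, and Foxa2 was at 0 in both by the selection. The part of these transcripts in the differences by Osr1 was not tested.

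**Figure D5:**
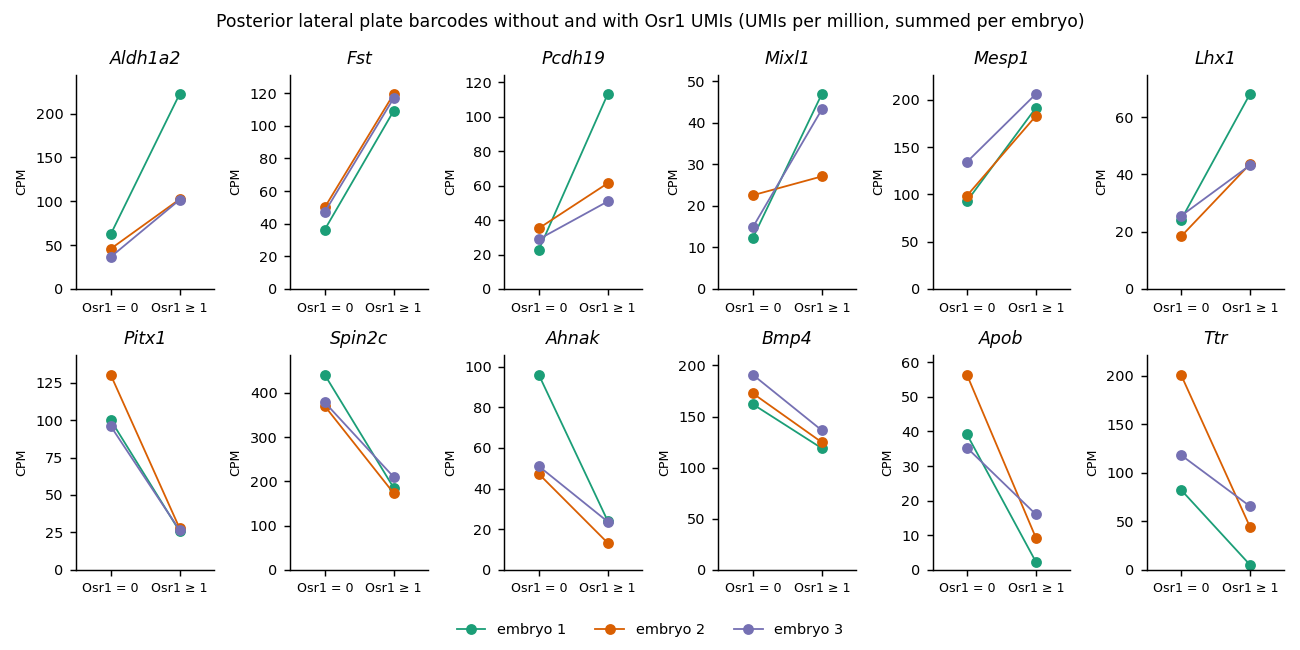
CPM (y axis, linear) in members without an Osr1 UMI and with at least 1 (x axis) for 12 genes, each line joining the classes of 1 embryo. Aldh1a2, Fst, Pcdh19, Mixl1, Mesp1 and Lhx1 are higher with Osr1 in all 3 embryos, and Pitx1, Spin2c, Ahnak, Bmp4, Apob and Ttr are lower in all 3.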

How the data were processed

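Single-cell libraries of 3 whole wild-type embryos were read from the deposited matrices of UMI counts per gene and barcode, which the authors made with Cell Ranger 3.1.0 on mm10, per the submitters' processing notes. The deposited counts are not normalised, and the strand setting is not given in the sources used here. The barcodes deposited numbered 6579, 8621 and 8333. The study's limits were applied to them (1500 to 8500 genes, up to 7500 in embryo 2, at most 10% mitochondrial UMIs), leaving 6129, 8116 and 7923 barcodes with 195477519, 145760007 and 166042809 UMIs. Of 31054 features 30934 were found in GENCODE release M21 (GRCm38). The members and the 21 gene lists were chosen with earlier results of these data known.

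UMIs were summed per embryo and class and tested in edgeR 4.0.16 (R 4.3.3) by the quasi-likelihood test with TMM scaling, filterByExpr and Benjamini-Hochberg adjustment over all genes tested, at an adjusted p of 0.05. The classes of 1 embryo share a library, so the embryo pairs them. Deviations from class means correlated at 0.140 to 0.385 within an embryo and at most -0.0244 between embryos. The 10 genes of the selection were not tested. SE is the log2 fold change over the square root of F. On simulated data the 5 comparisons recovered 81.5%, 98.1%, 99%, 99.1% and 100% of genes changed 4-fold and 43.4%, 68.1%, 76.8%, 78.0% and 80% of genes changed 2-fold, in the order of the text, with false calls of 9.92%, 6.18%, 6.42%, 3.28% and 5.32%. These false calls were above the threshold of 0.05 except against presomitic mesoderm. The simulated sums were drawn without an embryo effect, so they lack the pairing of the data, and recovery in the data may differ. In the main fit p-values describe the spread over 3 embryos without their pairing, which entered only with the embryo as a block. Shares printed with an SD give the spread over embryos, and other shares and floors cover counting error only.

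In each comparison the genes named were the 10 (against all other barcodes) or 6 with the largest change each way at 20 CPM or more and the same sign in every embryo, up to 4 called members of each list, and the left-right and Cdx genes with at least 10 UMIs. A further 36 results, those of Hand2, T, Gata6, Isl1, Vim and Hoxb8 among them, were chosen after their values were seen, as were Hoxd1 and Wnt5a where they were the exception in a list, the Hox groups, the Cdx4 bins and the promoter letters. A few genes that the rule names are not reported here. Alternatives were DESeq2 1.42.0, RLE scaling, no filter, the embryo as a block, leaving out each embryo, thinning to 5000 UMIs, count splitting, leaving out barcodes of high doublet score or low mitochondrial share, at least 2 Cdx4 UMIs, and all 3 of Hand1, Foxf1 and Osr1.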

Additional observations from a re-analysis of the deposited data

Results flagged for a closer look

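The labels describe wild-type embryos. The count tables held a feature for EGFP, whose sequence the paper states was part of the mm10 reference used. The EGFP feature had 59 UMIs in all barcodes that passed quality control and 0 in the posterior lateral plate mesoderm cells. A count of 0 allows up to 3 UMIs. This signal lay outside the genes compared here, and its source was not tested.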

How the results depend on the processing

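With the embryo as a replicate block, which pairs the classes of 1 embryo, the 5 comparisons in the order of the text called 3053, 820, 1449, 1954 and 489 genes, and all 289 called results on named genes stayed called, as they did with RLE scaling. With the block 9 results that had not passed also passed. Leaving out 1 embryo in turn gave 382 to 1182 genes against all other barcodes, 107 to 219 against Cdx4-negative cells, 79 to 326 against Tbx4-positive cells, 568 to 748 against presomitic mesoderm and 29 to 68 by Osr1. Without a filter on low counts the counts were 750 against Cdx4-negative cells, 634 against Tbx4-positive cells and 238 by Osr1. DESeq2 called 683 against presomitic mesoderm and 73 by Osr1. Thinned to 5000 UMIs, the test called 664 against all other barcodes, 254 against Cdx4-negative cells, 95 against Tbx4-positive cells, 217 against presomitic mesoderm and 16 by Osr1. With count splitting, where one part of the UMIs selected the cells and the other was tested, it called 963, 314, 204, 570 and 49 in the same comparisons. With all 3 of Hand1, Foxf1 and Osr1 required it called 985 against all other barcodes, 188 against Cdx4-negative cells, 654 against Tbx4-positive cells and 584 against presomitic mesoderm, and with at least 2 Cdx4 UMIs 76 by Osr1. The members made up 2.05% of barcodes when thinned, 2.09% with at least 2 Cdx4 UMIs and 0.918% with all 3 genes.

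Of the 289 called results, none changed sign under any of these alternatives in which its gene could be tested. Leaving out embryo 1, 2 or 3 lost 58, 78 and 104 of the calls, and 129 were lost without at least 1 embryo. Those that lost their call numbered 32 in DESeq2, 60 with count splitting, 65 when thinned, 35 with all 3 genes required, 12 with at least 2 Cdx4 UMIs, 4 without barcodes of high doublet score or low mitochondrial share and 2 without a filter. Sign changes were confined to results that did not pass. Against all other barcodes the receptor gene Acvr2b went to 0.022 with count splitting, 0.041 with all 3 genes and -0.136 to 0.027 when 1 embryo was left out, and against Tbx4-positive cells to -0.015 to 0.227. Cdx2 went to 0.072 against Tbx4-positive cells and Cfc1 to -0.079 by Osr1 when thinned. The causes were not tested. Depth differed between libraries, and sparse genes such as Nodal and Hoxd13 were measured through few UMIs.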
